A study of Mus musculus with 6 samples.

Results

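The matrix metalloproteinases (Mmp) and the tissue inhibitors of metalloproteinases (Timp) examined here are 8 genes chosen by name, of 22800 gene symbols in the table of RNA levels: the inhibitors Timp1, Timp2 and Timp3 and the proteinases Mmp8, Mmp12, Mmp13, Mmp14 and Mmp19. They were followed in cells of bronchoalveolar lavage fluid, collected by washing the air spaces of the lung with fluid, from mice injected intraperitoneally with 20 µg of sulfatide (n = 3, replicates 1, 2 and 3) and from mice given vehicle (n = 3, replicates 2, 3 and 4). Sulfatide is a sulfated glycolipid known as an antigen for type II natural killer T cells. According to its title, the series concerns alveolar macrophages and ischemia-reperfusion injury of the lung. Strain, genotype, sex, age, the composition of the vehicle, the time between injection and lavage and whether either group underwent lung injury are not given in the labels. Nothing in the labels says that the libraries came from separate animals, so p-values reflect only how far these libraries scatter, which could be technical scatter.

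Matrix metalloproteinases are zinc-dependent enzymes that are made as inactive proenzymes and cut collagen, elastin, basement membrane proteins and many cell surface and signalling proteins. Timp proteins are secreted inhibitors that block them by binding at the active site, so that proteolysis around a cell depends on the amounts of both. Macrophages make several of these enzymes and inhibitors, and in the mouse lung the macrophage elastase Mmp12 is known for its part in emphysema.

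Levels are FPKM, read fragments scaled by transcript length and by library size. They summed to 1217970 to 1249690 in sulfatide libraries and to 1126780 to 1168470 in vehicle libraries. Relative to vehicle replicate 2, approximate depths were 0.850 to 1.20 in sulfatide libraries and 1.00 to 1.06 in vehicle libraries, while absolute depth is unknown. All 6 general macrophage markers were above 2 FPKM in every library, and Lyz2, which encodes lysozyme, was at 25050.7 to 35890.8 FPKM in sulfatide libraries and 26963.4 to 31506.1 FPKM in vehicle libraries. None of the 6 general macrophage markers passed the test by limma (2 lower and none higher at an unadjusted p below 0.05), and their summed levels were 26933.6 to 38106.9 FPKM in sulfatide libraries and 29533 to 34208.9 FPKM in vehicle libraries. Of 10 alveolar macrophage markers 5 were tested and Plet1 alone was called (lower), at 1.95 to 5.04 FPKM in sulfatide libraries and 27.6 to 49.4 FPKM in vehicle libraries. Their summed level was 89.6 to 238 FPKM in sulfatide libraries and 133 to 182 FPKM in vehicle libraries, most of it Marco and Chil3, and the part of these cells in the results below was not tested. Marco was at 59.96 to 182.7 FPKM in sulfatide libraries and 81.2 to 104 FPKM in vehicle libraries. Chil3 was at 21.9 to 45.6 FPKM in sulfatide libraries and 19.3 to 30.5 FPKM in vehicle libraries. The alveolar macrophage markers Fabp1 and Krt79 had a listed level of 0 in each of the 6 libraries and Car4, Siglecf and Ear1 did not exceed 0.91 FPKM. Siglecf was at 0.67 to 0.9 FPKM in sulfatide libraries and 0.08 to 0.26 FPKM in vehicle libraries, too low to be tested. For Car4 and Ear1 the groups overlapped.

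Sulfatide libraries had more Timp1 and less Mmp13 and Mmp14 RNA than vehicle libraries, and more Mmp19 and Mmp8. Timp1 was 4.87-fold higher, Mmp19 2.16-fold higher and Mmp8 1.81-fold higher in sulfatide libraries. Mmp13 was 1.80-fold lower and Mmp14 1.32-fold lower. Timp2, Timp3 and Mmp12 did not pass the test. Each comparison used limma on log2(FPKM + 1), on which folds of genes at low levels come out too small, with Benjamini-Hochberg adjustment over 10405 genes and an adjusted p below 0.05 as the threshold. Of the 8 genes, 3 were called higher and 2 lower. Of all genes tested 18.7% were called, 8.31% higher and 10.4% lower. As the 8 genes were chosen with results of these libraries known, their count describes them and supports nothing further. The groups did not overlap for 4 of the 8, against 37% of all genes tested: 2 of the 8 lay wholly higher in sulfatide (18.6% of all genes tested) and 2 wholly lower (18.3%). In bulk RNA, fewer cells of a type and less RNA per cell cannot be told apart.

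**Figure D1:**
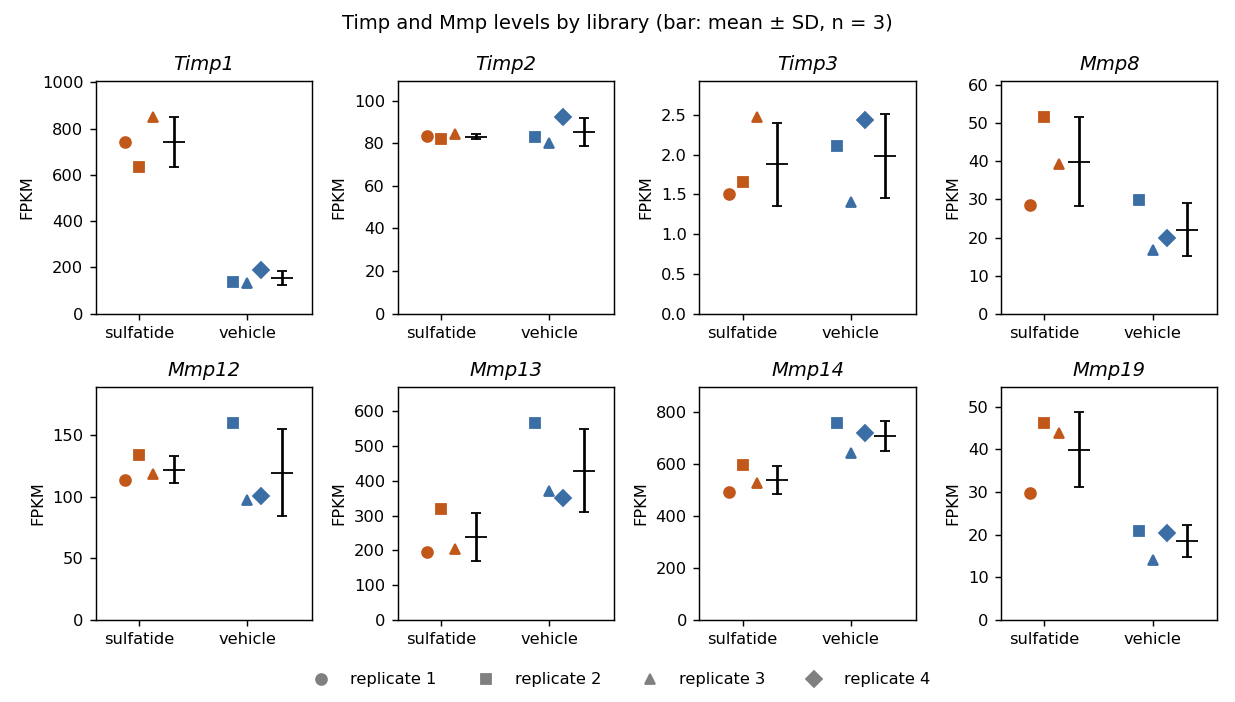
FPKM of the 8 genes (vertical axes, each from 0) in the 3 sulfatide libraries (orange) and the 3 vehicle libraries (blue), with marker shapes for the replicate numbers and black bars for the mean ± SD of each group. The Timp1 points of sulfatide lie between 635 and 852 FPKM, above all vehicle points, while Timp2 points of both groups lie between 80.03 and 92.5 FPKM.

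Promoter sequences of the 4 called genes that RefSeq's table (build GRCm38.p6) holds are shown because Timp1, Mmp8, Mmp13 and Mmp14 moved in different directions. Of the 8 genes, 7 had an entry, with 8 entries in all. Each line gives the 250 bases before the annotated start, 5′ to 3′ on the gene's own strand, and capitals mark matches to the motifs named below. The Timp1 window is chrX:20869916-20870165, that of Mmp8 is chr9:7558179-7558428, that of Mmp13 is chr9:7272264-7272513 and that of Mmp14 is chr14:54431348-54431597, all on the plus strand.
Timp1: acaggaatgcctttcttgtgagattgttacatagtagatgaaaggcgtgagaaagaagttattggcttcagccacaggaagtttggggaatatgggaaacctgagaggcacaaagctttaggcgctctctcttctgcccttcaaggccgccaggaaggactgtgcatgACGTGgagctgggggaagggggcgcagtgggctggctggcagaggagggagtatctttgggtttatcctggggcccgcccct
Mmp8: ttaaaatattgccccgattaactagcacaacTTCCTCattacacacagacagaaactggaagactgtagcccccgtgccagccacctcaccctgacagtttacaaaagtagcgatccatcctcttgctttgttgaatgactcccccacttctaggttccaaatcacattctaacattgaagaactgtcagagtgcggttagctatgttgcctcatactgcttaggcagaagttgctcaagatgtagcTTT
Mmp13: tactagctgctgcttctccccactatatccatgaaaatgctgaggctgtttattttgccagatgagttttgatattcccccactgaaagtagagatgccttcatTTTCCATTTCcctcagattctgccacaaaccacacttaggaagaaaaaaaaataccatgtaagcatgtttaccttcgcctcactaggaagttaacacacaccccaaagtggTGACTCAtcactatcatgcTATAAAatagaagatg
Mmp14: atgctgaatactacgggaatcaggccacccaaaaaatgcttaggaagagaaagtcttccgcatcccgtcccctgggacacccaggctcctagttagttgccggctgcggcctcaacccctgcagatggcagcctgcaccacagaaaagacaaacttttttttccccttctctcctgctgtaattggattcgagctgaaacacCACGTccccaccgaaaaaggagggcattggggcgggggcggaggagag

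The search covered 250 bases before to 50 after each start on both strands, for 8 motifs. These were TGANTCA for AP-1, TGACGTCA for CRE-binding proteins, TTCNNNGAA for STAT proteins, GAGGAA for the macrophage factor PU.1, ACGTG for hypoxia-inducible factors (HIF), TATAAA for the core promoter element, and the ISRE and NF-kappaB motifs by name. The Mmp13 window held an AP-1 match, TGACTCA, at -35 to -29 from the start and a TATAAA match at -16 to -11, besides an ISRE match at -146 to -137. AP-1 letters occurred in 7.81% of all 32851 promoter entries, TATAAA letters in 13.6% and ISRE letters in 3.44%. Of the other windows of the 8 genes, 1 of 2 Mmp12 entries held AP-1 letters (TGAGTCA at -44 to -38), and the Timp1, Timp2, Timp3, Mmp8 and Mmp14 windows held none. The Mmp8 window held TATAAA letters across the start, at -3 to 3, and PU.1 letters at -219 to -214, which occurred in 28.3% of entries. The Mmp12 entry with AP-1 letters also held TATAAA letters, at 5 to 10. The other Mmp12 entry held PU.1 letters at -86 to -81. The Timp1 and Mmp14 windows each held only HIF letters, at -82 to -78 and at -48 to -44, which occurred in 19.6% of entries. The Mmp8 and Mmp14 matches and the PU.1 letters of Mmp12 read on the minus strand. CRE letters occurred in 1.79% of entries, STAT letters in 8.3% and the NF-kappaB motif in 4.51%, and the windows of the 8 genes held none of these 3. No 2 matches overlapped in any of these windows. A match describes letters in the window and is not a binding site.

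Timp1 encodes a secreted inhibitor that also binds the proenzyme of Mmp9. Timp1 RNA was at 741, 635 and 852 FPKM in sulfatide replicates 1, 2 and 3, and at 137, 134 and 187 FPKM in vehicle replicates 2, 3 and 4. The lowest sulfatide library lay far above the highest vehicle library, and the groups did not overlap. Mean levels were 743 ± 109 FPKM in sulfatide and 153 ± 29.7 FPKM in vehicle (SD, n = 3 each). The log2 fold change was 2.28 ± 0.15 (SE), with an adjusted p of 4.24e-05 by limma. Ranked by log2 fold change, Timp1 was 7th upward among the 10405 genes tested, and it was called under all 14 alternative processings, with a log2 fold change of 2.17 to 2.44. The gene (chromosome X, 20870166 to 20874735, plus strand, GRCm38) lies within Syn1 on the opposite strand and shares no exonic base with it in GENCODE M21. Syn1 did not exceed 0.96 FPKM in any library.

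Timp2, which inhibits metalloproteinases and also takes part with Mmp14 in activating the proenzyme of Mmp2, was nearly level across the libraries. It was at 83.2, 81.98 and 84.2 FPKM in sulfatide replicates 1, 2 and 3, and at 83.1, 80.03 and 92.5 FPKM in vehicle replicates 2, 3 and 4. The 3 sulfatide values lay inside the vehicle range. The log2 fold change was -0.03 ± 0.09 (limma adjusted p = 0.819), and its 95% interval of -0.22 to 0.16 did not reach the size of the Timp1 difference.

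Timp3, an inhibitor that stays bound to the matrix and also blocks Adam17, was near the lower limit of testing. It was at 1.5, 1.65 and 2.48 FPKM in sulfatide replicates 1, 2 and 3, and at 2.11, 1.4 and 2.43 FPKM in vehicle replicates 2, 3 and 4. The groups overlapped almost fully. The log2 fold change was -0.05 ± 0.18 (limma adjusted p = 0.871), with a 95% interval of -0.46 to 0.36, so that a modest change of this gene was not detectable in 3 libraries a group. Timp3 lies within Syn3 on the opposite strand and shares 1733 exonic bases with it, but Syn3 did not exceed 0.07 FPKM.

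Mmp13 (collagenase-3) is the main interstitial collagenase of the mouse. Its RNA was at 194, 319 and 203 FPKM in sulfatide replicates 1, 2 and 3, and at 568, 372 and 349 FPKM in vehicle replicates 2, 3 and 4. Sulfatide replicate 2 and vehicle replicate 2 were the highest of their groups, and sulfatide replicate 2 came close to the lowest vehicle library without overlapping it. Means were 238 ± 69.95 FPKM in sulfatide and 429.7 ± 119.9 FPKM in vehicle (SD, n = 3 each). The log2 fold change was -0.85 ± 0.22, with an adjusted p of 0.0299 by limma. The call was lost without sulfatide replicate 1 (adjusted p = 0.0880), without sulfatide replicate 3 (0.0949), without vehicle replicate 2 (0.110) and in the fit of unfiltered genes (0.0799), while the direction held under all 14 alternatives.

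Mmp14 is the membrane-anchored metalloproteinase that cuts collagen at the cell surface and activates other proenzymes of the family. It was at 489.99, 595 and 525 FPKM in sulfatide replicates 1, 2 and 3, and at 758, 643 and 719.9 FPKM in vehicle replicates 2, 3 and 4. All 3 sulfatide libraries were below all 3 vehicle libraries. Means were 537 ± 53.6 FPKM in sulfatide and 707 ± 58.5 FPKM in vehicle (SD, n = 3 each), a small difference with a log2 fold change of -0.40 ± 0.10 and an adjusted p of 0.0261 by limma. The call was lost without sulfatide replicate 1 (adjusted p = 0.0952), sulfatide replicate 3 (0.0884), vehicle replicate 2 (0.123) or vehicle replicate 4 (0.0791) and in the fit of unfiltered genes (0.0540).

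Mmp19, which cuts basement membrane components, was at 29.8, 46.3 and 43.8 FPKM in sulfatide replicates 1, 2 and 3, and at 20.9, 14.1 and 20.5 FPKM in vehicle replicates 2, 3 and 4. The groups did not overlap. Means were 39.95 ± 8.86 FPKM in sulfatide and 18.5 ± 3.80 FPKM in vehicle (SD, n = 3 each), and the log2 fold change was 1.07 ± 0.19 with an adjusted p of 0.00552 by limma. The call held under all 14 alternatives, with a log2 fold change of 0.89 to 1.34 and an adjusted p of 0.00123 to 0.0245. The gene shares 789 exonic bases with Tmem198b on the opposite strand. It also shares 212 exonic bases with the antisense gene Gm47093, which has no listed level. Tmem198b was at 9.81 to 11.9 FPKM in sulfatide libraries and at 7.6 to 9.29 FPKM in vehicle libraries. Libraries were made strand-specific, but whether counting used the strand is not given in the sources used here, and without it reads of such partners cannot be told apart.

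Mmp8 (neutrophil collagenase, which macrophages can also make) was at 28.5, 51.8 and 39.4 FPKM in sulfatide replicates 1, 2 and 3, and at 29.8, 16.7 and 19.8 FPKM in vehicle replicates 2, 3 and 4. The groups overlapped, since sulfatide replicate 1 lay below vehicle replicate 2. Means were 39.9 ± 11.6 FPKM in sulfatide and 22.1 ± 6.85 FPKM in vehicle (SD, n = 3 each). The log2 fold change of 0.82 ± 0.24 passed narrowly, with an adjusted p of 0.0439 by limma. It did not pass without sulfatide replicate 2 (adjusted p = 0.109), sulfatide replicate 3 (0.105), vehicle replicate 3 (0.0737) or vehicle replicate 4 (0.128), in the fit of unfiltered genes (0.103), after rescaling to TPM (0.0772) or after quantile normalization (0.0529). Of 12 neutrophil markers, 6 were tested, and S100a8 alone was called (higher), a gene that activated macrophages also make. The summed neutrophil marker level was 433 to 585 FPKM in sulfatide libraries and 159 to 213 FPKM in vehicle libraries, most of it S100a8. The other 5 tested did not pass by limma: Csf3r, S100a9, Camp, Ngp and Cd177. At an unadjusted p below 0.05, 2 markers were higher (S100a8 and Csf3r) and 1 lower (Camp). Csf3r was at 55.9 to 68.9 FPKM in sulfatide libraries and 40.6 to 57.2 FPKM in vehicle libraries. S100a9 was at 10.97 to 35.2 FPKM in sulfatide libraries and 17.2 to 30.7 FPKM in vehicle libraries. Ly6g and Cxcr2 were not tested and did not exceed 0.18 and 0.12 FPKM in any library. The part of neutrophils in the Mmp8 result was not tested.

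Mmp12, the macrophage elastase, showed no detectable change. It was at 114, 134 and 119 FPKM in sulfatide replicates 1, 2 and 3, and at 160.4, 97.6 and 101 FPKM in vehicle replicates 2, 3 and 4. The sulfatide values all lay between the lowest and the highest vehicle value. The log2 fold change was 0.06 ± 0.18 (limma adjusted p = 0.825), with a 95% interval of -0.33 to 0.46. Mmp12 shares 157 exonic bases with Mmp1b on the opposite strand, which did not exceed 0.11 FPKM.

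**Figure D2:**
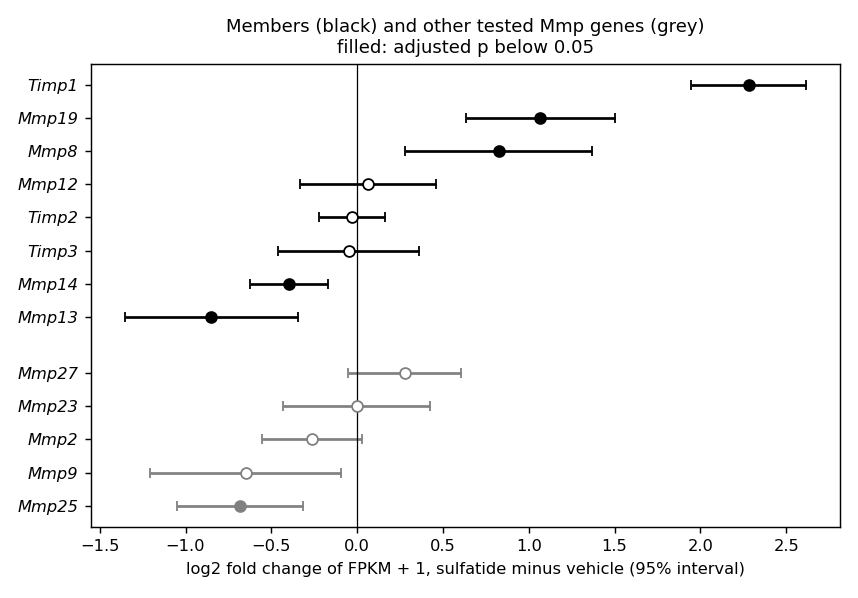
Log2 fold change of FPKM + 1, sulfatide minus vehicle (horizontal axis), with 95% intervals for the 8 genes (black) and the 5 other Mmp genes that were tested (grey). Filled points passed the threshold: Timp1, Mmp19 and Mmp8 lie right of 0, and Mmp14, Mmp13 and Mmp25 lie left of it.

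The order of levels on the per-length FPKM scale differed between the groups. In sulfatide libraries Timp1 had the highest mean, followed by Mmp14, Mmp13, Mmp12 and Timp2, and the ranges of these neighbours did not overlap. Mmp19 (29.8 to 46.3 FPKM) and Mmp8 (28.5 to 51.8 FPKM) came next with overlapping ranges, and Timp3 was last. In vehicle libraries Mmp14 and Mmp13 came first, then Timp1 (134 to 187 FPKM) and Mmp12 (97.6 to 160.4 FPKM), whose ranges overlapped, then Timp2, then Mmp8 and Mmp19, whose ranges also overlapped, and Timp3.

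The balance of inhibitor to proteinase RNA moved with these levels. Summed Timp RNA was 828 ± 110.1 FPKM in sulfatide and 239.8 ± 36.6 FPKM in vehicle, and summed RNA of the 5 Mmp genes was 978 ± 151 FPKM in sulfatide and 1297 ± 210.3 FPKM in vehicle (SD, n = 3 each). The ratio of summed Timp to summed Mmp RNA was 0.964, 0.627 and 1.01 in sulfatide replicates 1, 2 and 3, and 0.145, 0.188 and 0.233 in vehicle replicates 2, 3 and 4. Every sulfatide ratio lay above every vehicle ratio, and since the sums run over genes chosen with results known they carry no test. Timp1 made up 88.4 to 90.8% of summed Timp RNA in sulfatide libraries and 61.7 to 66.3% in vehicle libraries. Within the Mmp sum, Mmp14 held 55.2 ± 2.89% in sulfatide and 55.01 ± 5.17% in vehicle. The share of Mmp13 was 21.8 to 27.8% in sulfatide libraries and 28.9 to 36.9% in vehicle libraries. Mmp8 held 4.03 ± 0.619% in sulfatide and 1.68 ± 0.243% in vehicle, and Mmp19 held 4.08 ± 0.613% in sulfatide and 1.43 ± 0.235% in vehicle. RNA sums of different proteins are not amounts of active enzyme.

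**Figure D3:**
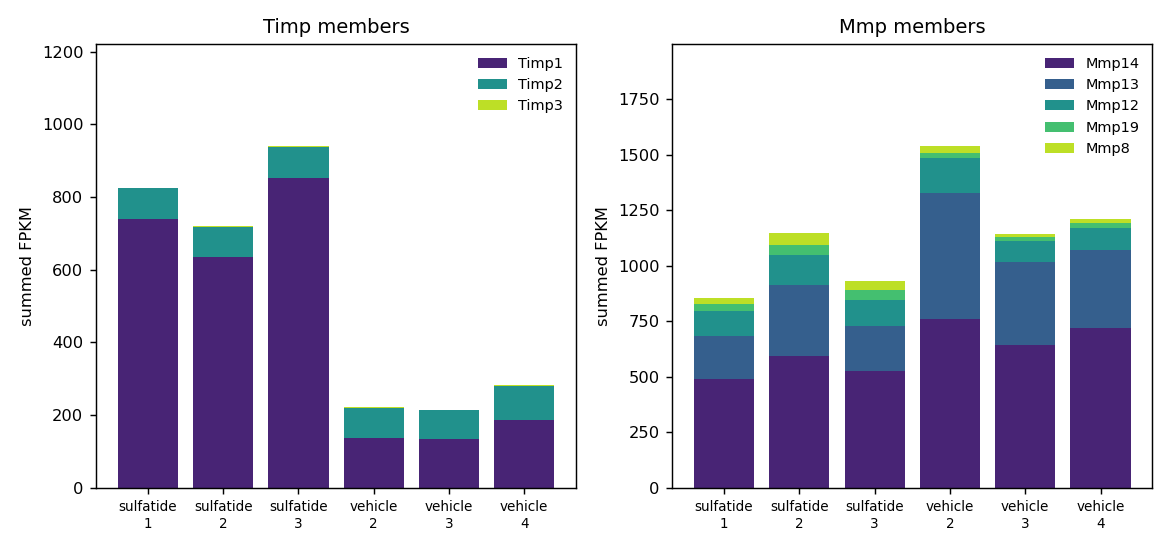
Summed FPKM (vertical axes) of the 3 Timp genes (left) and the 5 Mmp genes (right), stacked by gene, with 1 bar per library and sulfatide libraries left of vehicle libraries. Timp bars reach 719 to 939 FPKM in sulfatide libraries and 215 to 282 FPKM in vehicle libraries, and nearly all of that difference lies in the Timp1 segment.

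The library in which a gene was highest within its group was shared among the Mmp genes and among the Timp genes. All 5 Mmp genes were highest in sulfatide replicate 2 among sulfatide libraries and in vehicle replicate 2 among vehicle libraries. All 3 Timp genes were highest in sulfatide replicate 3 and in vehicle replicate 4. The lowest libraries did not divide the genes in this way. All 5 Mmp genes and Timp3 were lowest in sulfatide replicate 1, and Timp1 and Timp2 in sulfatide replicate 2. In vehicle libraries all 3 Timp genes and 4 of the 5 Mmp genes were lowest in replicate 3, and Mmp13 was lowest in replicate 4. Of all genes tested, 35% were highest in sulfatide replicate 2, 18.7% in vehicle replicate 2 and 8.9% in both. For the libraries of the Timp genes, the shares were 19.4% in sulfatide replicate 3 and 30.4% in vehicle replicate 4. This pattern was seen after the values were known, the Mmp genes are measured in the same libraries, and it carries no test. The coefficient of variation within a group was smallest for Timp2 (1.33% in sulfatide and 7.65% in vehicle) and between 26.6% and 31.0% in both groups for Timp3, Mmp8 and Mmp13. For Mmp12 it was 8.79% in sulfatide and 29.5% in vehicle.

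Of the other 18 Mmp genes and Timp4, 5 were tested and the rest stayed under the minimum of 1 FPKM in at least 3 libraries. By limma 1 was called lower (Mmp25) and none higher, against 2 lower and none higher at an unadjusted p below 0.05. The share called was 20%, close to the 18.7% of all genes tested (8.31% higher and 10.4% lower). Mmp25, a membrane-linked enzyme of leukocytes, was at 0.973 ± 0.323 FPKM in sulfatide and 2.15 ± 0.374 FPKM in vehicle (SD, n = 3 each, log2 fold change -0.68 ± 0.16, adjusted p = 0.0213). It did not pass without sulfatide replicate 1 (adjusted p = 0.0648), vehicle replicate 2 (0.0753) or vehicle replicate 4 (0.0753). Mmp9, the gelatinase whose proenzyme Timp1 binds, was at 2.38, 5.64 and 3.3 FPKM in sulfatide replicates 1, 2 and 3 and at 7.27, 4.64 and 6.98 FPKM in vehicle replicates 2, 3 and 4 (log2 fold change -0.65 ± 0.25, adjusted p = 0.0978). It passed without sulfatide replicate 2 (0.0214), without vehicle replicate 3 (0.0396) and with array weights (0.00781). Mmp2, the other gelatinase, was at 1.75 ± 0.263 FPKM in sulfatide and 2.29 ± 0.192 FPKM in vehicle (adjusted p = 0.189). Mmp27 was at 5.07 ± 0.754 FPKM in sulfatide and 4.01 ± 0.691 FPKM in vehicle (adjusted p = 0.215), and Mmp23 was at 1.20 ± 0.612 FPKM in sulfatide and 1.16 ± 0.147 FPKM in vehicle (adjusted p = 0.993). Timp4, Mmp7, Mmp15 and Mmp20 were listed at 0 in all 6 libraries, and Mmp1a, Mmp1b, Mmp11, Mmp16, Mmp17, Mmp21, Mmp24 and Mmp28 did not exceed 0.63 FPKM. Mmp3 and Mmp10 reached 1.03 and 0.73 FPKM at most.

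Mmp13, Mmp12 and Mmp8 belong to a cluster of 10 Mmp genes on chromosome 9 (7272514 to 7699585, GRCm38) that spans 427 kb. Along it the levels varied from gene to gene. Mmp13 and Mmp12 lie at its start, 61.0 kb apart, and 3 neighbours between Mmp12 and Mmp10 were near the floor, with Mmp3 at 0.82 to 1.03 FPKM in sulfatide libraries and 0.48 to 0.6 FPKM in vehicle libraries. Mmp8 lies 2.91 kb from Mmp27. Mean levels of 6 of the 10 genes were below 1 FPKM in both groups. Of the 3 cluster genes among the 8, 1 fell (Mmp13), 1 rose narrowly (Mmp8) and 1 did not pass the test (Mmp12).

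Other metalloproteinases and the proteins that act on the family were followed in lists drawn up by function. All counts below are calls by limma in the fit over all genes, and the median log2 fold change of all tested genes was 0.04. Of all genes tested, 18.7% were called, 8.31% higher and 10.4% lower, and the share called is given for each list to be read against these. Genes entered the test only at 1 FPKM or more in at least 3 libraries, so a gene high in 1 group could enter through that group alone, and the counts describe the lists without testing them. Of 7 tested Adam and Adamts genes, 3 were called lower and none higher (1 at an unadjusted p below 0.05), 42.9% in all, with a median of -0.04. Adam17, the sheddase that releases Tnf and is blocked by Timp3, was at 118 ± 14.7 FPKM in sulfatide and 177 ± 4.78 FPKM in vehicle (log2 fold change -0.59 ± 0.10, adjusted p = 0.00393). Adam8, a leukocyte sheddase, was at 220.0 ± 38.6 FPKM in sulfatide and 356 ± 62.8 FPKM in vehicle (adjusted p = 0.0174, 0.0765 without vehicle replicate 2 and 0.0614 without vehicle replicate 4). Adam33 was also lower (log2 fold change -0.75), but did not pass when any library other than vehicle replicate 3 was left out (adjusted p of 0.0548 to 0.123). It was called in 6 of the 13 alternatives that tested it, with a limma adjusted p of up to 0.155.

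Plasminogen activation, the serine protease route that can start proenzyme cutting, had 4 of 10 tested genes lower and none higher (1 at an unadjusted p below 0.05), 40% in all, with a median of -0.42. Plaur, the urokinase receptor, was at 46.2 ± 13.6 FPKM in sulfatide and 226 ± 50.6 FPKM in vehicle (log2 fold change -2.27 ± 0.21, adjusted p = 0.000173). Anxa2, a plasminogen-binding annexin, and Thbs1, a thrombospondin, were also lower (log2 fold changes -0.43 ± 0.08 and -1.68 ± 0.32).

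Among activators, receptors and regulators of Mmp and Timp proteins, 2 of 14 tested genes were higher and 4 lower, 42.9% in all, with a median of 0.01. Cd44, a hyaluronan receptor that anchors metalloproteinases at the cell surface, was at 44.6 ± 4.29 FPKM in sulfatide and 81.1 ± 3.91 FPKM in vehicle (adjusted p = 0.000444). Cav1, the caveolin of membrane pits, was at 124 ± 52.7 FPKM in sulfatide and 494 ± 59.9 FPKM in vehicle (log2 fold change -2.06 ± 0.25, adjusted p = 0.000682). Lcn2, whose protein binds Mmp9, was at 758 ± 140.03 FPKM in sulfatide and 337 ± 41.9 FPKM in vehicle (log2 fold change 1.16 ± 0.15, adjusted p = 0.000829). Cd9, a tetraspanin, was lower (log2 fold change -0.70 ± 0.11), and Cd63, the tetraspanin that Timp1 binds, was at 2285.0 ± 246 FPKM in sulfatide and 1708 ± 78.7 FPKM in vehicle (log2 fold change 0.42 ± 0.10, adjusted p = 0.0201).

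A list of enzymes that cut matrix, mostly cysteine and serine proteases, had 14 tested genes. It also held the hyaluronidase genes Hyal1 and Hyal2, the heparanase gene Hpse and Ctsd, an aspartic protease. Of the 14 genes, 3 were higher and none lower, also none at an unadjusted p below 0.05, 21.4% in all, with a median of 0.07. The 3 were Ctsl, Ctsk and Ctsh, cathepsins of lysosomes, with log2 fold changes of 0.47 ± 0.11, 0.43 ± 0.11 and 0.30 ± 0.08. Each lost its call in some processing. Ctsl lost it without sulfatide replicates 2 or 3 (adjusted p = 0.0542 and 0.0789), in the fit of unfiltered genes (0.0557), with TPM (0.0640) and with quantile normalization (0.115). Ctsk lost it without each library in turn (0.0511 to 0.0885), and Ctsh without each library other than vehicle replicate 4 (0.0552 to 0.131). Over all 14 alternatives Ctsk was called in 5 and Ctsh in 6, with limma adjusted p of up to 0.124 and 0.140. Of 11 tested inhibitors of other protease classes, 4 were higher and 1 lower, 45.5% in all, with a median of 0.11. Wfdc17, a small whey acidic protein, was at 5455 ± 556 FPKM in sulfatide and 1135 ± 166 FPKM in vehicle, and its log2 fold change of 2.27 ± 0.12 was close to that of Timp1. Ambp, the precursor of bikunin, was at 23.8 ± 7.03 FPKM in sulfatide and 2.68 ± 1.05 FPKM in vehicle. Spint1, a Kunitz-type inhibitor, was higher (log2 fold change 0.74 ± 0.15) and Serpina3g, an inhibitor of cathepsins in mice, was lower (-0.97 ± 0.13).

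**Figure D4:**
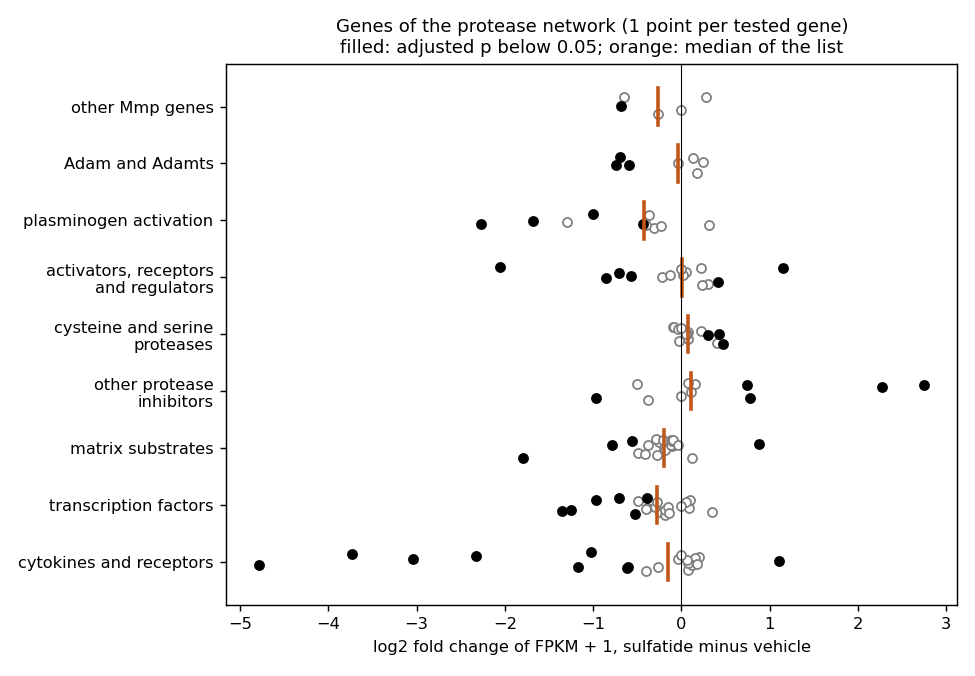
Log2 fold change of FPKM + 1, sulfatide minus vehicle (horizontal axis), for each tested gene of 9 lists around the Mmp and Timp genes, with 1 row per list. Filled points passed the threshold and orange bars mark list medians, which run from -0.42 (plasminogen activation) to 0.11 (other protease inhibitors).

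RNA of proteins that these enzymes cut was low in most cases, and 1 of 20 tested matrix genes was higher and 3 lower, 20% in all and close to the share of all genes, with a median of -0.20. Spp1, which encodes the secreted matrix protein osteopontin made by macrophages, was at 2729 ± 434 FPKM in sulfatide and 1496 ± 328 FPKM in vehicle (log2 fold change 0.88 ± 0.17, adjusted p = 0.00733). Agrn, a basement membrane proteoglycan, was at 2.38 ± 0.258 FPKM in sulfatide and 10.7 ± 1.77 FPKM in vehicle (log2 fold change -1.79 ± 0.14). The basement membrane collagen genes Col4a2 and Col4a1 were also lower, at 0.633 ± 0.0702 and 0.437 ± 0.0702 FPKM in sulfatide and at 1.82 ± 0.04 and 1.11 ± 0.0945 FPKM in vehicle, levels at which they entered the test through vehicle libraries. Col4a1 did not pass without sulfatide replicate 1 (adjusted p = 0.0599) or sulfatide replicate 3 (0.0518). It was called in 6 of the 9 alternatives that tested it, with a limma adjusted p of up to 0.170. Fibroblasts make several Mmp and Timp genes, and of 9 fibroblast markers 4 were tested and none passed by limma, also none at an unadjusted p below 0.05. Their summed level was 32.3 to 43.6 FPKM in sulfatide libraries and 33.4 to 48.3 FPKM in vehicle libraries, and Thy1 and Tcf21 were listed at 0 in all 6. Of 8 mural markers, 3 were tested and Pdgfrb alone was called (lower), with summed levels of 33.1 to 48.1 FPKM in sulfatide libraries and 43.2 to 49.6 FPKM in vehicle libraries. The part of either cell type in the Mmp and Timp results was not tested.

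Transcription factors known to act on Mmp and Timp1 promoters had 6 of 21 tested genes lower and none higher, also none higher at an unadjusted p below 0.05, 28.6% in all, with a median of -0.27. Nfkb1, a subunit of NF-kappaB, was at 85.0 ± 6.08 FPKM in sulfatide and 204 ± 15.2 FPKM in vehicle, and Rel, another subunit, was lower too (log2 fold changes -1.25 ± 0.09 and -0.96 ± 0.11). Ets2, a factor of the Ets family, and Jund, a subunit of AP-1, had log2 fold changes of -1.36 ± 0.18 and -0.70 ± 0.10. Of cytokines that induce Timp1 or Mmp genes and their receptors, 8 of 20 tested were lower and 1 higher (Il4ra), 45% in all, with a median of -0.15. The cytokine genes Il1a, Il1b and Tnf were lower (log2 fold changes -3.73 ± 0.22, -3.04 ± 0.21 and -2.33 ± 0.19). Il6 was at 0.517 ± 0.146 FPKM in sulfatide and 49.96 ± 31.5 FPKM in vehicle (adjusted p = 0.000318), entering the test through vehicle libraries alone, and Osm, a cytokine of the same family, was at 2.42 ± 1.13 FPKM in sulfatide and 6.47 ± 0.291 FPKM in vehicle (adjusted p = 0.00431). Tgfb1, another inducer, was at 256 ± 10.5 FPKM in sulfatide and 256 ± 3.84 FPKM in vehicle (adjusted p = 0.992).

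The genes closest in pattern were sought by Pearson correlation of log2(FPKM + 1) over the 6 libraries among genes with a group mean of at least 5 FPKM. All points share the libraries and the group difference, so the values describe and are given without a test. Closest to Timp1 were Cdc42se1 (r = 0.998), Cltb (0.997) and Adora3 (0.995). Cltb was called higher at 78.2 ± 2.06 FPKM in sulfatide and 49.7 ± 1.61 FPKM in vehicle, as was Adora3 at 13.7 ± 2.23 FPKM in sulfatide and 4.51 ± 0.35 FPKM in vehicle, while Cdc42se1 did not pass the test (adjusted p = 0.318). Closest to Mmp19 were Gatc (0.997), the cathepsin gene Ctsl (0.997) and Cd53 (0.994). Closest to Mmp8 were Sh3bgrl (0.997), Ugt1a7c (0.986) and Sumo2 (0.980). Closest to Mmp13 were Rab32 (0.989), the chemokine gene Ccl9 (0.987) and Kpna3 (0.987), and to Mmp14 Kdm7a (0.997), Klf6 (0.995) and Larp1 (0.995). Closest to Mmp12 were Trnt1 (0.985), Cd48 (0.969) and Fbxl12 (0.947), to Timp2 Limk2 (0.990), Fos (0.946) and Trim41 (0.944), and to Timp3 Apoe (0.989), Txnip (0.982) and Pirb (0.971).

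**Figure D5:**
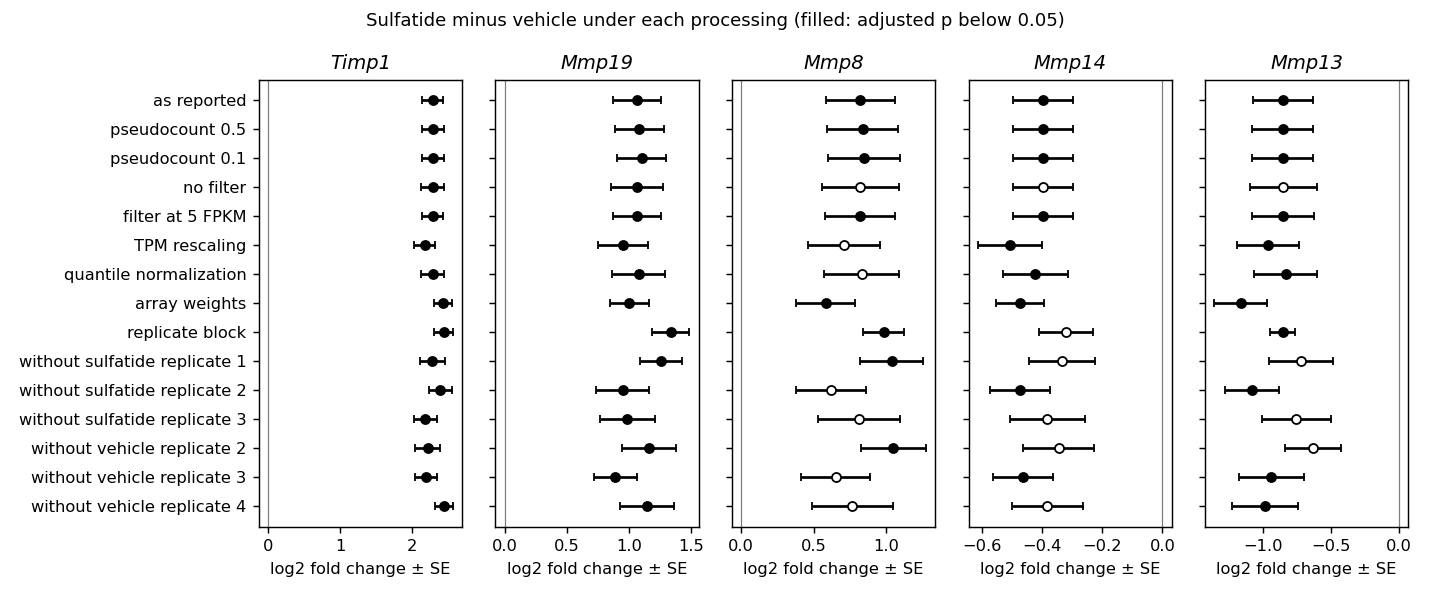
Log2 fold change ± SE (horizontal axes) of the 5 called genes under the reported processing (top row) and 14 alternatives (rows below). Filled points passed the threshold: Timp1 and Mmp19 are filled in every row, Mmp13 in 10 of the 14 alternatives, Mmp14 in 8 and Mmp8 in 7, and no point crosses 0.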

How the data were processed

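RNA of lavage cells was measured by sequencing in 6 libraries, whose titles give the group and the replicate number. TRIzol extraction, poly(A) selection and strand-specific (dUTP) paired-end libraries are stated per the labels' protocols. Per the submitters' processing notes the genome build was mm10. Aligner, counter and annotation: not given in the sources used here. The authors deposited FPKM values rounded to 2 decimals for 22800 symbols; 3 further value columns matched no sample and were not used. Absolute depth is unknown, and relative depth came from the commonest ratio between low FPKM of the same gene in different libraries.

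Genes at 1 FPKM or more in at least 3 libraries (10405) were analysed as log2(FPKM + 1) with limma 3.58.1 in R 4.3.3 (intensity trend, 2-sided, Benjamini-Hochberg), which was tested on simulated data. All 8 genes passed this filter in every library. Folds are ratios of mean FPKM. The genes named beside the 8 are all other Mmp genes and Timp4, up to 4 of each list with the smallest p, the 3 closest in pattern to each of the 8, and overlapping genes. Of the genes this rule names, 1 is not reported here. Cd63, Osm, Tgfb1, Il4ra and the markers named by level were picked outside this rule with their values already known. The members and lists were chosen with earlier results of these data known. Positions are from GENCODE M21 and promoters from RefSeq (GRCm38.p6). No protein sequence was used here. Alternatives were quantile normalization, rescaling to TPM, array weights, other pseudocounts (0.5 and 0.1), other filters (none, or 5 FPKM), the replicate number as a block and leaving out each library.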

Additional observations from a re-analysis of the deposited data

How the results depend on the processing

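Over all genes, 865 were called higher and 1078 lower in sulfatide. The counts were 522 higher with no filter, 468 higher after rescaling to TPM, 2054 higher and 1723 lower with array weights, and 297 higher and 635 lower with the replicate number as a block. Leaving out 1 library gave 263 to 1420 higher and 603 to 1136 lower. The share of calls that were higher was 44.5%, against 23.6% with the TPM rescaling (468 higher and 1516 lower) and 54.4% with array weights, and it ran from 30.4% without vehicle replicate 2 to 57.2% without vehicle replicate 3.

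Of the 8 Mmp and Timp genes, 3 were called higher and 2 lower. None was called lower by limma with no filter, where 2 were lower at an unadjusted p below 0.05, and 1 was with the replicate block. Leaving out 1 library gave 2 to 3 higher and 0 to 2 lower, with none lower without sulfatide replicate 1, without sulfatide replicate 3 or without vehicle replicate 2, and 2 lower at an unadjusted p below 0.05 in each. Timp1 and Mmp19 were called under all 14 alternatives, and no called gene among the 8 changed direction. With the block Mmp14 had an adjusted p of 0.0840 and Mmp25 of 0.192. Groups share only replicate numbers 2 and 3, and deviations from group means correlated at 0.16 and -0.30 over genes for these, so the numbers were not taken as pairs. With 3 libraries a group and unknown absolute depth, changes of low genes such as Timp3 were not resolved.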
